A study of Caenorhabditis elegans with 12 samples.

Results

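The glutathione S-transferase (GST) genes of Caenorhabditis elegans were described in RNA-seq libraries of isolated proximal somatic gonad (PSG) cells. The members were the protein-coding rows of the deposited count table whose gene name begins with gst-, gsto- or gstk- followed by a number, which gave 49 genes of the 20528 protein-coding genes and of the 46687 genes in the table. The PSG was marked with GFP from a single-copy Pfos-1a::gfp transgene, and GFP+ cells were sorted from dissociated adult hermaphrodites at the first day of adulthood (D1) and at day 7 (D7). The 12 libraries fell into 4 groups of 3 biological replicates each. The daf-2(rf) groups carried the reduction-of-function allele e1370 of the insulin/IGF-1 receptor gene daf-2. The double mutant groups, daf-16(0); daf-2(rf), written with daf 16(-) in the sample labels, carried e1370 and in addition mu86, a null allele of the FOXO transcription factor gene daf-16. All 4 groups therefore had reduced daf-2 function, and no group with a wild-type daf-2 gene was analysed. Each library pooled the cells of many animals, the sort depended on the activity of the fos-1a promoter, and the RNA was amplified before sequencing.

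GST enzymes join glutathione to electrophilic compounds, which makes them more water-soluble and marks them for export, and some also reduce peroxides or bind hydrophobic ligands. Nematodes have an expanded sigma class beside smaller pi, omega, kappa and maleylacetoacetate isomerase-like (zeta) classes. In C. elegans many of these genes respond to oxidative and xenobiotic stress through SKN-1, the Nrf homologue, and gst-4 is widely used as a reporter of that response. The insulin/IGF-1 pathway acts on stress genes through both SKN-1 and DAF-16/FOXO, so the comparison of daf-2(rf) with the double mutant asks which GST transcripts depended on daf-16 in these cells, and the comparison of D7 with D1 asks which differed with age.

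Library totals ran from 6183054 to 16407304 reads. The 10 genes with the most reads took 27.3% to 73.5% of a library, and the TMM factor, which scales each library for such differences, ran from 0.385 to 3.21. Replicates 2 and 3 of D7 daf-2(rf) had the highest factors, 3.21 and 2.16. After this scaling 1 read was worth 0.02505 to 0.3723 CPM (reads scaled to a common library size). daf-16 itself was at 35.0 to 41.7 CPM in D1 daf-2(rf) and 4.94 to 18.5 CPM in the D1 double mutant, and at 13.3 to 43.4 CPM against 6.24 to 10.3 CPM on D7. The 10 PSG markers matched, among them fos-1 and sth-1, were detected in all 4 groups, with a summed level of 2988 to 12463 CPM per library. Markers of other tissues were present as well. The summed CPM per library was 31.2 to 2054 for 14 intestine markers, 22.4 to 131 for 12 germ-line markers, 4.58 to 188 for 8 hypodermis markers, 99.6 to 655 for 10 neuronal markers and 1471 to 19164 for 8 body-wall muscle markers. Nearly all of the body-wall muscle sum came from lev-11, with 34392 to 177292 reads per library, against 277 to 2173 for the next marker, unc-15. The sum thus gives little information on the other body-wall muscle markers. In bulk RNA from sorted cells, fewer cells of a type and less RNA per cell cannot be told apart.

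A gene was called detected in a group when all 3 replicates held more than 10 reads. By this rule 19 of the 49 GST genes were detected in at least 1 group, 6 in all 4 groups and 30 in none. The 6 detected everywhere were gst-5, gst-7, gst-1, gst-20, gst-15 and gst-13. Of the 30 others, 16 had over 10 reads in all without meeting the rule, 12 had 1 to 10 reads over the 12 libraries, and gst-18 and gst-37 had no read in any library. A count of 0 allows up to 3 reads, which is 0.0751 to 1.12 CPM depending on the library and covers counting error only. The number of GST genes detected was 12 in D1 daf-2(rf), 7 in the D1 double mutant, 13 in D7 daf-2(rf) and 15 in the D7 double mutant. The D1 double mutant, with the fewest, also included the shallowest library, replicate 1 with 6183054 reads. GST genes with over 10 reads numbered 12 in that library, 14 in replicate 2 and 9 in replicate 3. Replicate 3, with the fewest, had 14831720 reads, 73.5% of them in the 10 genes with the most reads. For comparison, 17 of 65 UDP-glucuronosyltransferase genes and 21 of 76 cytochrome P450 genes were detected in at least 1 group.

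By the class named in the deposited gene descriptions, 14 of the 36 sigma class genes were detected. The pi class had 2 detected of 5 (gst-1 and gst-10), the omega class 1 of 4 (gsto-3) and the kappa class 0 of 2. Both maleylacetoacetate isomerase-like genes, gst-42 and gst-43, were detected. The family was concentrated on chromosome II, which held 26 of the 49 genes in the WBcel235 build, and 25 genes lay in 4 groups of neighbours less than 10000 bases apart.

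Neighbouring genes differed in detection and in level. In the group at chromosome II 13608185 to 13630887, gst-20, gst-24, gst-15 and gst-16 were detected, while gst-14, gst-12, gst-19, gst-17 and gst-18 between and beside them were not, and totals ran from 0 to 2574 reads. In the group at chromosome II 4879885 to 4893574, the mean FPKM over the 4 groups was 78.5 for gst-7, 0.911 for gst-6 and 0.133 for gst-8. The group at chromosome II 15163808 to 15185385 had 2 detected genes of 9, gst-27 and gst-39. None of the 3 genes at chromosome IV 10139380 to 10143101, gst-3, gst-2 and gst-4, was detected. How reads that fit more than 1 place were counted is not given in the sources used here, so reads of near-identical neighbours could have been split or dropped.

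A few genes made up most of the family's signal. FPKM, which divides by gene length, was used to compare genes. Summed over the 49 genes it was 568 ± 84.4 in D1 daf-2(rf), 333 ± 144 in the D1 double mutant, 406 ± 85.8 in D7 daf-2(rf) and 220 ± 31.4 in the D7 double mutant (mean ± SD, n = 3). On D7 the 3 daf-2(rf) libraries, at 320 to 491 FPKM, all lay above the 3 double mutant libraries, at 184 to 243. On D1 the ranges of 471 to 626 and 219 to 494 overlapped. gst-5, gst-7 and gst-1 together held 83.1% of the summed FPKM in D1 daf-2(rf), 65.3% in the D1 double mutant, 83.1% in D7 daf-2(rf) and 61.4% in the D7 double mutant.

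**Figure D1:**
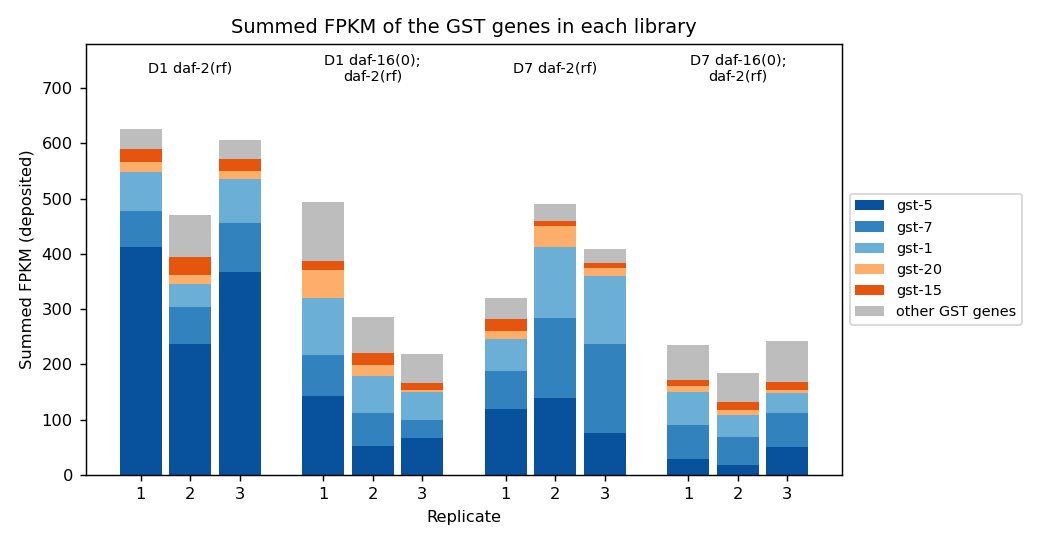
Stacked bars show the summed deposited FPKM of the 49 GST genes in each of the 12 libraries, with gst-5, gst-7, gst-1, gst-20 and gst-15 in separate colours and the remaining genes in grey. The gst-5 segment is tallest in the D1 daf-2(rf) libraries, where it is 50.4% to 65.9% of the bar, and shortest in the D7 double mutant libraries, where it is 10.004% to 20.97%.

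The order of levels differed between groups. In D1 daf-2(rf), gst-5 stood first at 339 ± 91.1 FPKM and did not overlap with the next gene, gst-7, at 74.0 ± 13.6 FPKM. gst-7 and gst-1 (63.5 ± 20.3 FPKM) overlapped with each other and lay above gst-15 (26.2 ± 6.64 FPKM) and gst-20 (16.6 ± 1.92 FPKM). In the D1 double mutant, gst-5 (86.9 ± 49.1), gst-1 (73.5 ± 27.04) and gst-7 (55.9 ± 20.8 FPKM) led, and every neighbouring pair of the 7 detected genes overlapped. In D7 daf-2(rf), gst-7 (126 ± 49.8), gst-5 (111 ± 32.4) and gst-1 (103 ± 39.1 FPKM) overlapped with their neighbours in the order and lay above gst-20 (21.95 ± 13.8 FPKM). In the D7 double mutant, gst-7 (57.8 ± 6.62), gst-1 (45.1 ± 11.99) and gst-5 (32.8 ± 16.5 FPKM) did the same above gst-15 (13.7 ± 2.69 FPKM). gst-5 was thus first by mean on D1 in both genotypes, behind gst-7 in D7 daf-2(rf), and behind gst-7 and gst-1 in the D7 double mutant.

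gst-5 (R03D7.6, sigma class, chromosome II 10950350 to 10951604, plus strand, 2 exons in the Ensembl annotation of the same build) encodes an enzyme that can conjugate 4-hydroxynonenal, a product of lipid peroxidation. Its level in replicates 1, 2 and 3 was 436, 239 and 377 CPM in D1 daf-2(rf) and 142, 55.2 and 70.5 CPM in the D1 double mutant. On D7 it was 121, 139 and 74.4 CPM in daf-2(rf) and 28.7, 18.8 and 50.0 CPM in the double mutant. Every daf-2(rf) library lay above every double mutant library of the same age, and every D7 library lay below every D1 library of the same genotype. The log2 fold change of daf-2(rf) against the double mutant was 1.91 ± 0.52 (standard error) on D1, with an adjusted p of 0.0713 by the quasi-likelihood test of edgeR (Benjamini-Hochberg, all genes tested), and 1.77 ± 0.43 on D7, with an adjusted p of 0.0829. A gene was called when the adjusted p was under 0.05 and the log2 fold change was at least 1 in size, so gst-5 was not called at either age by this test.

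The gst-5 call depended on the test used. DESeq2's Wald test called it at both ages, with an adjusted p of 0.00711 on D1 and 0.00425 on D7, and on D1 edgeR called it when replicate 1 of the double mutant was left out (adjusted p 0.0343). In every fit run the genotype difference had the same direction. gst-5 was the only GST gene of the 10 tested at both ages whose daf-2(rf) libraries lay above the double mutant libraries on D1 and on D7, as 1.96% of the 6267 genes tested at both ages did. Marker sums also differed between these groups. The PSG marker sum was 4975 to 12463 CPM in D1 daf-2(rf) and 3022 to 5371 CPM in the D1 double mutant, and 2988 to 7457 against 5306 to 9323 CPM on D7. The intestine sum was 423 to 681 against 490 to 2054 CPM on D1 and 31.2 to 63.9 against 137 to 1177 CPM on D7, and the body-wall muscle sum was 8644 to 9890 against 7207 to 19164 CPM on D1 and 1471 to 5096 against 3141 to 4497 CPM on D7. In daf-2(rf) the medians of all these sums, like gst-5, were lower on D7 than on D1. In the double mutant, where gst-5 was also lower on D7, so were the intestine and body-wall muscle medians. The PSG median of the double mutant was higher on D7 (5931 against 3841 CPM). nmy-1 held most of each PSG sum and lev-11 nearly all of each body-wall muscle sum. Other PSG markers did not all follow the sum on D1. fos-1 had 2465, 3737 and 5776 reads in D1 daf-2(rf) and 385, 932 and 1970 in the D1 double mutant. fkh-6 had 2058, 4040 and 3977 against 1708, 3722 and 3774 reads. In these groups 1 read was worth 0.0776 to 0.119 and 0.103 to 0.372 CPM. The part of the marker sums in the gst-5 differences was not tested. Without gst-5, the summed level of the family was 179 ± 8.11 CPM in D1 daf-2(rf), 196 ± 71.7 in the D1 double mutant, 228 ± 63.5 in D7 daf-2(rf) and 143 ± 13.9 in the D7 double mutant.

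**Figure D2:**
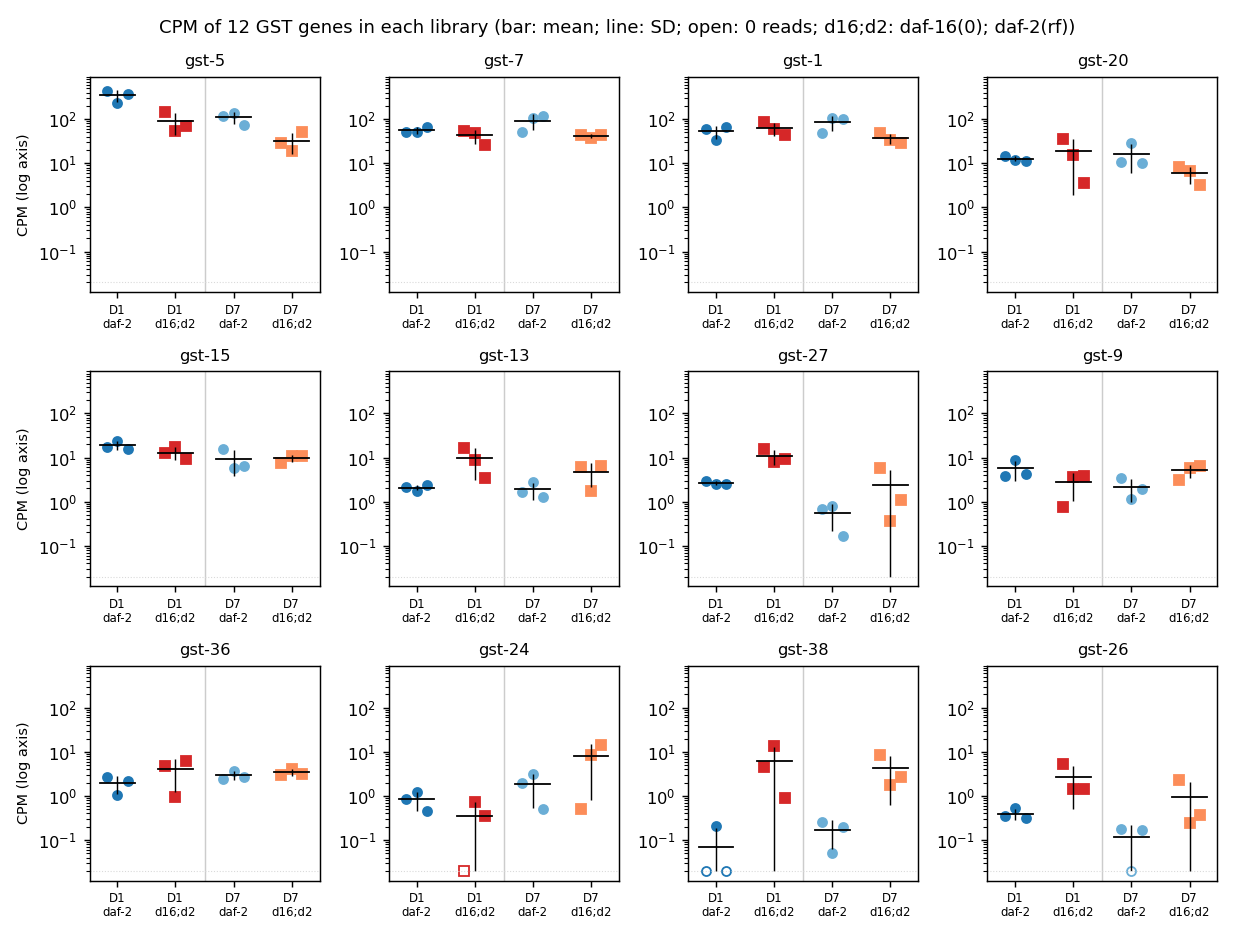
Each panel shows 1 GST gene, with CPM on a log axis for the 4 groups (circles, daf-2(rf); squares, double mutant), 1 point per library. Horizontal bars are means and vertical lines SD, which stop at 0.02 CPM where they would go below it; open symbols at 0.02 are libraries with 0 reads. For gst-5 the groups are ordered without overlap within each age, and for gst-38 the D1 daf-2(rf) libraries are at 0, 0.208 and 0 CPM.

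gst-7 and gst-1 were the next most abundant. gst-7 (F11G11.2, sigma class, chromosome II 4882071 to 4883361) was at 50.7, 50.3 and 68.2 CPM in D1 daf-2(rf), 54.7, 47.5 and 26.2 in the D1 double mutant, 52.2, 109 and 119 in D7 daf-2(rf) and 45.0, 37.9 and 44.8 in the D7 double mutant. gst-1 (R107.7, pi class, chromosome III 9058904 to 9060183), which has been studied for its protective role in dopaminergic neurons, was at 61.3, 33.6 and 67.0 CPM in D1 daf-2(rf), 84.5, 59.0 and 44.1 in the D1 double mutant, 48.6, 106 and 99.99 in D7 daf-2(rf) and 47.7, 34.0 and 29.2 in the D7 double mutant. For both genes the genotypes overlapped on D1 and did not overlap on D7, where replicate 1 of daf-2(rf) came closest to the double mutant. The D7 log2 fold change was 1.15 ± 0.37 for gst-7 (edgeR adjusted p 0.151) and 1.21 ± 0.38 for gst-1 (edgeR adjusted p 0.148), and neither gene was called. The 2 highest D7 libraries for both genes, replicates 2 and 3 of daf-2(rf), also had the highest TMM factors. Over 8 other settings of the test, normalizations included, the D7 log2 fold change was 1.03 to 1.19 for gst-7 and 1.12 to 1.25 for gst-1.

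gst-20 (Y48E1B.10, sigma class, chromosome II 13608185 to 13609780) was at 14.6, 12.2 and 11.3 CPM in D1 daf-2(rf), 36.5, 15.7 and 3.50 in the D1 double mutant, 10.9, 28.3 and 10.03 in D7 daf-2(rf) and 8.10, 6.57 and 3.18 in the D7 double mutant. The D1 double mutant libraries spread on both sides of the daf-2(rf) libraries, while on D7 the genotypes did not overlap (log2 fold change 1.46 ± 0.50, edgeR adjusted p 0.174, not called). gst-15 (F37B1.4, sigma class) was at 17.4, 24.3 and 15.8 CPM in D1 daf-2(rf), 12.7, 17.3 and 9.10 in the D1 double mutant, 16.0, 5.84 and 6.51 in D7 daf-2(rf) and 7.48, 10.9 and 10.9 in the D7 double mutant. Its genotypes overlapped at both ages.

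Some sigma class genes of lower abundance were lower in daf-2(rf), among them both genes called. gst-38 (F35E8.8, chromosome V 15915168 to 15916079, minus strand, 2 exons) had 0, 2 and 0 reads in D1 daf-2(rf), which is 0, 0.208 and 0 CPM, and 12, 133 and 5 reads in the D1 double mutant, which is 4.47, 13.7 and 0.875 CPM. On D7 it had 3, 2 and 7 reads in daf-2(rf) (0.261, 0.0501 and 0.197 CPM) and 168, 29 and 36 reads in the double mutant (8.66, 1.80 and 2.66 CPM). All 6 double mutant libraries lay above all 6 daf-2(rf) libraries. The log2 fold change on D7 was -4.80 ± 0.87 (edgeR adjusted p 0.0477), and gst-38 was the only GST gene called on D7 by this fit. It entered the fit only through the double mutant, the group in which it was high, so it could be called in that direction only. The call was lost in each of the 6 fits that left out 1 library, with log2 fold changes of -5.18 to -3.83 and adjusted p of 0.0562 to 0.126 in edgeR. It was also lost with limma on log2(FPKM + 1), where the change was -2.13 ± 0.44 (adjusted p 0.0539). On D1 gst-38 did not pass the filter for the test, and its ratio of pooled CPM was 128 (95% interval 34.8 to 1066, counting error only), from 150 reads against 2. Replicate 2 of the D1 double mutant held 133 of the 150 reads.

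gst-27 (Y53F4B.30, chromosome II 15164885 to 15165726, minus strand, 2 exons) was at 2.97, 2.50 and 2.48 CPM in D1 daf-2(rf) and 15.3, 7.92 and 9.10 CPM in the D1 double mutant. On D7 it was at 0.697, 0.776 and 0.169 CPM in daf-2(rf) and 5.72, 0.372 and 1.11 CPM in the double mutant. The genotypes did not overlap on D1 and overlapped on D7. The D1 log2 fold change was -2.06 ± 0.43 (edgeR adjusted p 0.0332), and gst-27 was the only GST gene called on D1 by this fit. DESeq2 called gst-27, gst-13 and gst-5 on D1. The edgeR call held without replicate 1 or replicate 2 of the double mutant and was lost without replicate 3 of the double mutant or without any 1 of the 3 daf-2(rf) replicates, with adjusted p of 0.0249 to 0.156 over the 6 edgeR fits. It was also lost when all 12 libraries shared 1 fit (adjusted p 0.130 in edgeR).

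For gst-13, gst-26, gst-6 and gst-21 the D1 daf-2(rf) libraries likewise lay below all D1 double mutant libraries. Such an order was not particular to the family. Of all 6430 genes tested on D1, 898 lay lower in daf-2(rf) without overlap. gst-21 was at 0 to 0.465 CPM against 0.514 to 1.49 CPM on D1, where it was not tested, and its genotypes overlapped on D7. gst-13 (T26C5.1) was at 2.14, 1.77 and 2.33 CPM in D1 daf-2(rf), 16.4, 8.85 and 3.50 in the D1 double mutant, 1.65, 2.78 and 1.27 in D7 daf-2(rf) and 6.14, 1.73 and 6.36 in the D7 double mutant. Its log2 fold change was -2.23 ± 0.57 on D1 (edgeR adjusted p 0.0606) and -1.31 ± 0.56 on D7 (edgeR adjusted p 0.260), and edgeR did not call it at either age. On D1 DESeq2 called gst-13 (adjusted p 0.00602). The D7 genotypes of gst-13 overlapped through replicate 2 of the double mutant. gst-26 (Y53F4B.29), the neighbour of gst-27, was at 0.357, 0.521 and 0.310 CPM in D1 daf-2(rf), 5.21, 1.44 and 1.40 in the D1 double mutant, 0.174, 0 and 0.169 in D7 daf-2(rf) and 2.27, 0.248 and 0.370 in the D7 double mutant. gst-6 (F11G11.3), the neighbour of gst-7, was at 0, 0.104 and 0.0776 CPM in D1 daf-2(rf), 0.372, 1.44 and 1.05 in the D1 double mutant, 0.0871, 0 and 0.225 in D7 daf-2(rf) and 3.61, 0.310 and 1.33 in the D7 double mutant. Neither gst-26 nor gst-6 was detected in any group, so neither was tested. On D1 the ratio of pooled CPM of gst-6 was 17.9 (95% interval 4.38 to 158, counting error only), from 21 reads against 2. gst-6, gst-26 and gst-38 were the 3 of 47 GST genes with a read whose daf-2(rf) libraries lay below the double mutant libraries at both ages, as 1.32% of the 18362 protein-coding genes with a read did.

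Marker sums of other tissues were read beside these low-abundance genes. The summed level of the 14 intestine markers was 473, 681 and 423 CPM in D1 daf-2(rf), 2054, 490 and 1512 CPM in the D1 double mutant, 63.9, 43.9 and 31.2 CPM in D7 daf-2(rf) and 1177, 137 and 399 CPM in the D7 double mutant. Replicate 1 of the double mutant had the highest intestine sum at each age, and gst-27, gst-26 and, on D7, gst-38 and gst-6 were also highest in that library within their group. So were gst-7, gst-1, gst-20 and gst-10 at each age, and gst-5 and gst-13 on D1. On D1 gst-38 and gst-6 were highest in replicate 2 of the double mutant, and gst-6 was lowest in replicate 1. Replicate 2 had the lowest intestine sum of that group, within the range of D1 daf-2(rf). Most of the sum in D1 daf-2(rf) came from the yolk protein genes vit-2, vit-5 and vit-6, and the markers did not move together. In replicate 2 vit-2 and vit-6 had 1588 and 777 reads, against 1950 to 3570 and 1528 to 2080 in D1 daf-2(rf). asp-1 and act-5 had 1092 and 300 reads in replicate 2, against 18 to 71 and 22 to 80. The germ-line sum was 22.4 to 25.4 CPM in D1 daf-2(rf) and 110 to 131 CPM in the D1 double mutant, against 31.5 to 44.5 and 27.1 to 35.6 CPM on D7. The hypodermis sum was 10.9 to 110 CPM in D1 daf-2(rf) and 44.8 to 188 CPM in the D1 double mutant, against 6.97 to 12.003 and 4.58 to 21.9 CPM on D7. No germ-line or intestine marker was at 0 in a whole group, and of the hypodermis markers dpy-7 was at 0 in D1 daf-2(rf). Their part in the differences of gst-38, gst-27, gst-13, gst-26 and gst-6 was not tested.

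**Figure D3:**
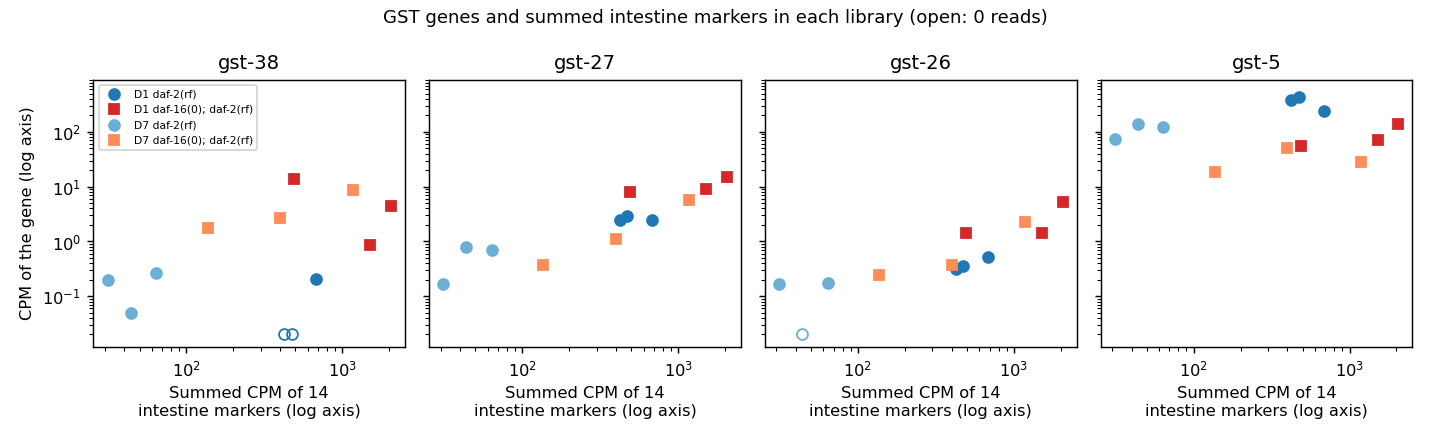
Each panel plots the CPM of 1 GST gene against the summed CPM of 14 intestine markers, both on log axes, with 1 point per library (circles, daf-2(rf); squares, double mutant; darker colours, D1; open symbols, 0 reads drawn at 0.02). The D7 daf-2(rf) libraries lie at the left, at 31.2 to 63.9 summed CPM, and are low for gst-38, gst-27 and gst-26, whereas for gst-5 the D1 daf-2(rf) libraries are highest at intermediate intestine sums of 423 to 681 CPM.

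Over the family, the genotype comparison on D7 tested 17 GST genes, of which 0 were called higher in daf-2(rf) and 1 lower (gst-38). Among all 7933 genes tested 1.15% were called, 0.328% higher and 0.819% lower. The genotypes did not overlap for 6 of the 17, 4 higher in daf-2(rf) (gst-5, gst-7, gst-1 and gst-20) and 2 lower (gst-38 and gsto-3), against 25.6% of all genes tested (12.3% higher and 13.3% lower). gsto-3, an omega class gene, was at 1.04, 0 and 0.535 CPM in D7 daf-2(rf) and 1.495, 1.73 and 2.59 CPM in the double mutant (log2 fold change -2.01 ± 1.08, edgeR adjusted p 0.357). Of the 17 genes, 4 (gst-38, gst-42, gst-22 and gsto-3) passed the filter only through the double mutant and 2 (gst-24 and gst-21) only through daf-2(rf), which bears on the sign of the median. The median log2 fold change was -0.34 over the GST genes tested and 0.03 over all genes. At an unadjusted p under 0.05, 7 of the 17 passed, against 18.8% of all genes.

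The genotype comparison on D1 tested 12 GST genes, with 0 called higher in daf-2(rf) and 1 lower (gst-27), and the share called among all 6430 genes was 3.51% (1.26% higher, 2.26% lower). The genotypes did not overlap for 3 of the 12 (gst-5 higher, gst-27 and gst-13 lower), against 32.2% of all genes tested. The median log2 fold change was -0.35 over the GST genes tested, 5 of which passed the filter only through daf-2(rf), and -0.02 over all genes. At an unadjusted p under 0.05, 3 of the 12 passed, against 24.9% of all genes.

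**Figure D4:**
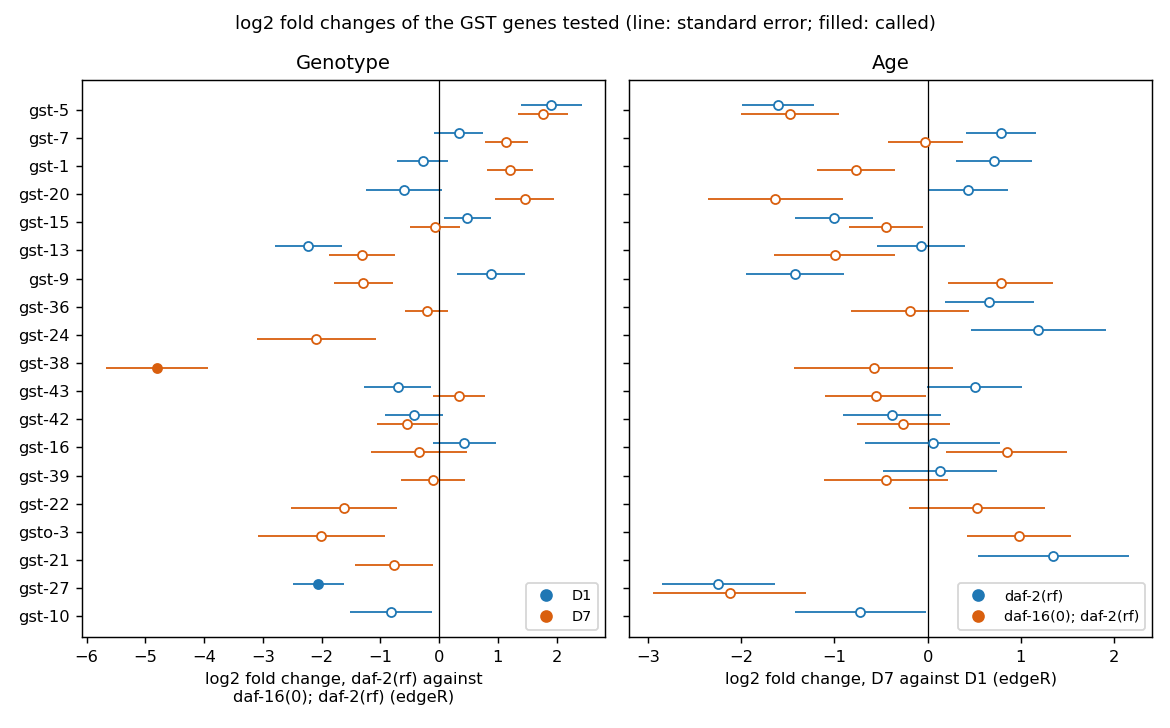
Points are edgeR log2 fold changes with standard errors for each GST gene tested, with daf-2(rf) against the double mutant on the left (blue, D1; orange, D7) and D7 against D1 on the right (blue, daf-2(rf); orange, double mutant). Filled points mark the genes called, gst-27 on D1 at -2.06 and gst-38 on D7 at -4.80, and gst-5 is the gene that lies to the right in both genotype comparisons, at 1.91 and 1.77, and to the left in both age comparisons, at -1.61 and -1.47.

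With age, no GST gene was called in either genotype by edgeR with the filter on low counts and all 6 libraries of the comparison. In daf-2(rf), 0 of 16 tested genes were called, against 0.218% of 7337 genes (0.0681% higher and 0.15% lower on D7), while 4 of the 16 had an unadjusted p under 0.05, against 22.2% of all genes, and DESeq2 called 2 (gst-5 and gst-27). The ages did not overlap for 3 of the 16, all lower on D7, against 28.3% of all genes. These were gst-5 (log2 fold change -1.61 ± 0.39, edgeR adjusted p 0.0840), gst-27 (-2.25 ± 0.61, edgeR adjusted p 0.0991) and gst-9 (-1.42 ± 0.53, edgeR adjusted p 0.168). The median was 0.09 over the GST genes tested, 4 of which passed the filter only on D7 and 3 only on D1, and 0.07 over all genes.

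In the double mutant, 0 of 16 tested genes were called, against 0.583% of 7541 genes (0.199% higher and 0.385% lower on D7), 3 had an unadjusted p under 0.05, against 29.6% of all genes, and DESeq2 called 0. The ages did not overlap for 3 of the 16, against 38.7% of all genes. gst-5 (log2 fold change -1.47 ± 0.53, edgeR adjusted p 0.107) and gst-27 (-2.12 ± 0.82, edgeR adjusted p 0.126) were lower on D7, and gsto-3 (0.98 ± 0.55, edgeR adjusted p 0.259) was higher. edgeR called gst-27 when replicate 1 of the D7 double mutant, its highest D7 library, was left out (adjusted p 0.0282). The median was -0.45 over the GST genes tested, 9 of which passed the filter only on D7 and 1 only on D1, and 0.08 over all genes. The age and genotype comparisons share groups, so their values for a gene are not independent.

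The interaction, which is the genotype difference on D7 minus that on D1, was called for 0 of 19 GST genes by edgeR, against 0.704% of 8096 genes (0.296% positive and 0.408% negative), and DESeq2 also called 0. At an unadjusted p under 0.05, 3 of the 19 passed, against 23.6% of all genes. For gst-1 the interaction was 1.41 ± 0.57 on the log2 scale (edgeR adjusted p 0.163), and for gst-20 it was 1.98 ± 0.91 (edgeR adjusted p 0.208). For gst-9 it was -2.25 ± 0.81 (edgeR adjusted p 0.129). For gst-5 it was -0.20 ± 0.66 (edgeR adjusted p 0.878), which does not show that its genotype difference was equal at both ages.

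gst-9 (R05F9.5, sigma class) was at 3.80, 8.96 and 4.34 CPM in D1 daf-2(rf), 0.745, 3.70 and 3.85 in the D1 double mutant, 3.396, 1.13 and 1.89 in D7 daf-2(rf) and 3.15, 5.95 and 6.29 in the D7 double mutant. Its span contains the whole of msp-33, a major sperm protein gene on the opposite strand, and since the use of strand in counting is not given in the sources used here, reads of the pair cannot be told apart. The summed level of 9 sperm markers was 0.104 to 13.3 CPM in D1 daf-2(rf) and at most 3.47 CPM in D7 daf-2(rf), and in the double mutant it was 8.40 to 16.7 CPM on D1 and at most 2.37 CPM on D7. By mean, gst-9 was higher on D1 than on D7 in daf-2(rf) and lower on D1 than on D7 in the double mutant. The median sperm sum was higher on D1 in both genotypes. Within each of the 4 groups, the replicate with the highest gst-9 level had the lowest sperm sum. In replicate 2 of D1 daf-2(rf) these were 8.96 and 0.104 CPM. The part of sperm RNA in the gst-9 values was not tested. gst-36 (R07B1.4), which overlaps scav-5 by 86 bases, was at 2.61, 1.04 and 2.17 CPM in D1 daf-2(rf), 4.84, 0.926 and 6.30 in the D1 double mutant, 2.44, 3.68 and 2.73 in D7 daf-2(rf) and 2.99, 4.15 and 3.18 in the D7 double mutant, and its 4 groups overlapped between genotypes at both ages. gst-24 (F37B1.1) was at 0.832, 1.25 and 0.465 CPM in D1 daf-2(rf), 0, 0.720 and 0.350 in the D1 double mutant, 1.92, 3.13 and 0.507 in D7 daf-2(rf) and 0.516, 8.55 and 14.6 in the D7 double mutant. The gst-24 replicates of the D7 double mutant thus spread from 10 to 197 reads, and the genotypes overlapped at both ages.

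The remaining classes were low. gst-10 (Y45G12C.2, pi class), whose product conjugates 4-hydroxynonenal, was at 1.31, 3.12 and 1.63 CPM in D1 daf-2(rf), 7.82, 2.37 and 1.05 in the D1 double mutant, 0.697, 2.33 and 0.423 in D7 daf-2(rf) and 3.09, 0.248 and 1.04 in the D7 double mutant. gst-42 (D1053.1), the maleylacetoacetate isomerase of tyrosine breakdown, was at 1.78, 2.60 and 2.17 CPM in D1 daf-2(rf), 3.35, 3.70 and 1.40 in the D1 double mutant, 0.697, 1.73 and 2.31 in D7 daf-2(rf) and 2.27, 2.79 and 2.07 in the D7 double mutant. Both overlapped between genotypes at both ages. gsto-1 (C29E4.7, omega class), known from the intestine and overlapping kle-2 by 437 bases, had at most 2 reads in any library and 8 in all. gstk-1 (ZK1320.1, kappa class), a mitochondrial and peroxisomal enzyme in C. elegans, had at most 5 reads in any library and 23 in all.

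Single libraries held much of the signal of several low genes. gst-4 (K08F4.7, chromosome IV 10142162 to 10143101), the SKN-1 reporter gene, had 9, 94 and 19 reads in D1 daf-2(rf), 0, 9 and 1 in the D1 double mutant, 10, 19 and 7 in D7 daf-2(rf) and 2, 1 and 7 in the D7 double mutant. In CPM these were 1.07, 9.79 and 1.47, then 0, 0.926 and 0.175, then 0.871, 0.476 and 0.197, and 0.103, 0.0620 and 0.518. Replicate 2 of D1 daf-2(rf) was thus the highest gst-4 library, and the same library held 125 of the 202 reads of gst-19 and 10 of the 19 reads of gst-41. On D1 the gst-4 genotypes did not overlap, and gst-4 was not detected in any group and so was not tested. Among the genes that were tested on D1, 18.2% lay higher in daf-2(rf) without overlap. Replicate 2 of D7 daf-2(rf) held 40 of the 52 reads of gsto-2. On D7 the daf-2(rf) libraries of gsto-2, which was not tested, lay above the double mutant libraries, as did those of 12.3% of the genes tested. The ratio of pooled CPM of gsto-2 was 27.7 (95% interval 4.74 to 1114, counting error only), from 49 reads against 1. The other GST genes detected, gst-43, gst-16, gst-39, gst-22 and gst-21, were at most at 4.10 CPM in any library, and none of them was called by edgeR in any of the 5 comparisons as described above.

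Genes that work beside the GSTs were read from lists chosen by function, with edgeR calls and their direction in daf-2(rf). Of 26 glutathione and thioredoxin genes, 18 were detected and 0 were called in any comparison. gcs-1, the rate-limiting enzyme of glutathione synthesis, was at a mean of 7.87 CPM in D1 daf-2(rf) and 4.80 CPM in the D1 double mutant (log2 fold change 0.57 ± 0.60), and at 9.59 and 9.41 CPM on D7 (0.04 ± 0.30). Of 8 genes of SKN-1 regulation matched, 7 were detected and 0 called. skn-1 was at a mean of 36.5 and 22.6 CPM on D1 (0.63 ± 0.40) and 49.2 and 32.2 CPM on D7 (0.61 ± 0.26), in the same order of genotypes. wdr-23, which encodes the adaptor that targets SKN-1 for degradation, was at 85.6 and 27.5 CPM on D1 (1.57 ± 0.43, edgeR adjusted p 0.0727) and 35.0 and 55.7 CPM on D7 (-0.66 ± 0.35, edgeR adjusted p 0.357). Of 9 conjugate export genes, which encode transporters of glutathione conjugates, 8 were detected and 0 called.

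The other conjugating and oxidizing families held a few calls, to be read beside the 3.51% of all genes called on D1 (1.26% higher). Among the UDP-glucuronosyltransferases, ugt-49 was called higher in daf-2(rf) on D1 (log2 fold change 2.69 ± 0.63, edgeR adjusted p 0.0451), 1 of 4 tested. On D7 0 of 17 were called in either direction, against 1.15% of all genes. Of the cytochrome P450 genes, 2 of 11 tested on D1 were called, both higher in daf-2(rf). These were cyp-34A6 (2.33 ± 0.39, edgeR adjusted p 0.0201) and cyp-35C1 (2.59 ± 0.61, edgeR adjusted p 0.0468). On D7 0 of 20 were called. In the interaction cyp-34A6 was called (-2.20 ± 0.44, edgeR adjusted p 0.0462), 1 of 21 tested, against 0.704% of all genes.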

How the data were processed

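Per the labels and the study's methods, RNA from sorted GFP+ cells was amplified (SMARTer Ultra Low) and sequenced as paired ends. The authors aligned reads to WBcel235 with HISAT2 2.0.5 and counted them per gene with featureCounts 1.5.0-p3. The deposited counts are raw reads per gene. The deposited FPKM values equalled counts over gene length, scaled by DESeq2 size factors and the libraries' geometric mean total (largest relative deviation 1.73e-07). Counts were fitted in edgeR 4.0.16 (quasi-likelihood, TMM, Benjamini-Hochberg adjustment over all genes tested), 6 libraries per pairwise comparison and 12 for the interaction. A gene entered a fit if the 3 replicates of some group each held over 10 reads. A call needed an adjusted p under 0.05 and, except for the interaction, a log2 fold change of at least 1 in size. DESeq2 1.42.0, limma 3.58.1 on log2(FPKM + 1) and log2(FPKM + 0.1), other normalizations, no filter, no fold threshold, a replicate block, 1 fit over all libraries and leaving out each library were alternatives. Replicates differed by more than sampling noise. The main edgeR step was tested on counts simulated with a single fixed dispersion and without composition differences between replicates. These libraries differ from that setting, so the simulation does not give the rate of false or missed calls here. GST genes were named with per-library values if called, among the 10 highest by mean FPKM, not overlapping between genotypes at both ages, or among gst-4, gst-10, gst-1, gsto-1, gstk-1 and gst-42, and others named were chosen after their values were seen. Members and gene lists were chosen with earlier results of these data known. No sequences are printed.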

Additional observations from a re-analysis of the deposited data

How the results depend on the processing

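With edgeR's quasi-likelihood test, 1 GST gene was called between genotypes on D7 (91 genes of all), 1 on D1 (226), 0 with age in daf-2(rf) (16), 0 with age in the double mutant (44) and 0 for the interaction (57). Without the filter on low counts these became 6, 6, 3, 2 and 0 GST genes, and 1025, 861, 863, 1394 and 703 genes of all. The additions were gst-1, gst-5, gst-6, gst-20 and gst-24 on D7, and gst-4, gst-5, gst-13, gst-19 and gst-38 on D1. Of the D1 additions, gst-4, gst-19 and gst-38 had most of their D1 reads in 1 library. That fit moved the median of all genes to -0.25 on D7 and 0.55 with age in the double mutant. DESeq2's Wald test called 2, 3, 2, 0 and 0 GST genes, and 702, 761, 651, 1353 and 842 genes of all. limma on log2(FPKM + 1) called 0, 2, 1, 0 and 0 GST genes (gst-38 on D7 at -2.13, adjusted p 0.0539), and 132, 333, 103, 78 and 145 of all, and limma on log2(FPKM + 0.1) called 1, 1, 0, 0 and 0, and 158, 171, 65, 21 and 36 of all. With all 12 libraries in 1 fit, 1 GST gene was called on D7 (253 of all), 2 on D1 (gst-38 and gst-5, 218 of all), 0 with age in daf-2(rf) (11) and 1 in the double mutant (gst-24, 939). DESeq2 size factors and upper-quartile normalization changed no count of GST calls, but upper-quartile normalization left 1 interaction call of all genes, which was positive, against 24 positive of 57.

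Leaving out 1 library at a time gave 0 GST calls in every D7 fit (0 to 27 of all genes), 0 to 2 on D1 (2 to 460), 0 in every fit of age in daf-2(rf) (5 to 232), 0 to 1 with age in the double mutant (0 to 625) and 0 in every interaction fit (0 to 128). The 2 D1 calls, gst-27 and gst-5, came without replicate 1 of the double mutant, and the 1 age call, gst-27, without replicate 1 of the D7 double mutant.

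Deviations of same-numbered replicates had a mean correlation of -0.0273 (range -0.283 to 0.299), against 0.0127 for different numbers. With 3 libraries per group, these correlations gave no sign of pairing by number and could not exclude it. With the replicate number as a block, 0 GST genes were called on D7 (0 of all; gst-38 -4.51 ± 0.60, edgeR adjusted p 0.0946), 3 on D1 (gst-5, gst-13 and gst-27; 478 of all), 0 with age in either genotype (15 and 67 of all) and 0 for the interaction (17 of all). The direction of the genotype and age differences of gst-5, and of the called differences of gst-38 and gst-27, held in every fit run. The cause of these changes was not tested. The filter on low counts kept 30 of the 49 GST genes out of every test with it.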

Other observations

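C02D5.4, a gene whose deposited annotation names a GST C-terminal domain but whose name lies outside the rule for the 49 genes, lies next to gsto-2 (chromosome III 8552553 to 8553837, WBcel235). It had 22 to 244 reads in each of the 12 libraries. Its level was 4.28, 4.27 and 2.79 CPM in D1 daf-2(rf), 8.19, 5.04 and 5.25 CPM in the D1 double mutant, 4.62, 6.11 and 3.89 CPM in D7 daf-2(rf) and 4.02, 4.27 and 3.55 CPM in the D7 double mutant. The daf-2(rf) libraries lay below the double mutant libraries on D1 and overlapped with them on D7. The log2 fold change was -0.75 ± 0.43 on D1 (edgeR adjusted p 0.298) and 0.30 ± 0.33 on D7 (edgeR adjusted p 0.654), and it was not called in any comparison.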
